A study of Homo sapiens with 12 samples.

Results

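Integrins are adhesion receptors, and the genes described here are 9 of them: ITGA2, ITGA3, ITGA5 and ITGAV, which encode α subunits, and ITGB1, ITGB3, ITGB5, ITGB6 and ITGB8, which encode β subunits. They were taken by gene symbol as receptors for collagen, laminin and fibronectin. They are 9 of the 58735 gene entries in the count tables. After a filter on low counts 17780 genes were tested, among them 8 of the 9 integrins, and the ninth, ITGB3, had at most 9 counts in a library.

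The cells were MDA-MB-468, an established triple-negative breast cancer line labelled as wild type, and poly(A) RNA was sequenced from 12 libraries in 4 groups of 3. The first group received the vehicle DMSO. A pair of groups received 10 nM docetaxel, a taxane that stabilises microtubules, in 10 cm plates for 8 h or 24 h. The last group, called the combination here, received 5 µM tazemetostat, an inhibitor of the histone methyltransferase EZH2, with 5 µM ipatasertib, an inhibitor of the kinase AKT, in 6 cm plates and 2% serum for 24 h. Its cells had already spent 5 days in tazemetostat or in DMSO. The labels do not give the hours, the plate or the serum of the DMSO libraries, nor the serum of the docetaxel cultures, so these conditions and the drugs cannot be told apart. Neither inhibitor alone was analysed here. Libraries of a group carry the letters A, B and C and are not stated to come from separate cultures, so the p-values measure the spread between libraries, which may be technical.

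An integrin is a pair of an α and a β subunit that spans the plasma membrane, binds extracellular matrix outside the cell and connects through talin, kindlin and vinculin to actin inside it. β1 pairs with many α subunits, among them α2 for collagen, α3 for laminin and α5 for fibronectin. αV pairs with β1, β3, β5, β6 or β8 and binds proteins with an RGD sequence, such as fibronectin and vitronectin, and with β6 or β8 it releases active TGF-β from its latent complex. Both subunits are needed for a receptor to reach the cell surface, so the mRNA values below do not give the number of receptors.

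Total counts lay between 29820617 and 45807059 per library, and the 9 integrins took 0.0808% to 0.0868% of them in DMSO, 0.058% to 0.0696% at 8 h of docetaxel, and 0.0642% to 0.0676% at 24 h. The combination gave them a larger share, 0.109% to 0.115%. Epithelial markers were high in every library: KRT8 lay between 2870 and 4050 CPM, the count scaled to a fixed library size, EPCAM between 306 and 466, and CDH1 between 85.3 and 127. The summed level of 7 fibroblast markers was 24.3 to 27 CPM in DMSO, 14 to 15.7 at 8 h, 19 to 22.1 at 24 h and 29.4 to 30.1 in the combination. Most of it was COL1A1, with means of 21.6, 12.6, 17.5 and 18 CPM in the same order. PDGFRA averaged 1.73 CPM in DMSO and 4.98 in the combination. Over 4 endothelial markers, carried mostly by KDR, the sums were 21.7 to 24.2, 11.8 to 17.7, 13.5 to 14.9 and 38.8 to 40 CPM in the same order. The 5 immune markers summed to 11.5 to 12.2, 10.2 to 11.3, 9.18 to 10.5 and 20.6 to 23.6 CPM, nearly all of it ITGB2, while PTPRC, CD3E and CD68 did not exceed 0.227 CPM. LUM and DCN had no counts outside the combination, where LUM averaged 4.17 CPM. The share of counts from mitochondrial genes was 4% to 4.48% in DMSO, 8.2% to 9% at 8 h, 5% to 7.53% at 24 h and 7.71% to 9.3% in the combination. These values moved with the groups, and their part in the integrin results was not tested. In bulk RNA, fewer cells of a type and less RNA per cell cannot be told apart.

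The genes lie on 7 chromosomes of GRCh38, the same build as hg38. ITGA2 is at chr5:52989326-53094779 (plus strand), ITGA3 at chr17:50055968-50090481 (plus), ITGA5 at chr12:54395261-54419460 (minus) and ITGAV at chr2:186590065-186680901 (plus). ITGB1 is at chr10:32900319-33005792 (minus), ITGB3 at chr17:47253846-47311816 (plus), ITGB5 at chr3:124761948-124901418 (minus), ITGB6 at chr2:160099666-160200313 (minus) and ITGB8 at chr7:20330702-20415754 (plus). ITGB8 shares 98 exon bases with AC004130.1 on the opposite strand, which had 73 to 161 counts per library against 1749 to 3133 for ITGB8. The strand setting of the counting is not given in the sources used here, so reads of such a pair cannot be told apart. The other genes that share exon bases with a member had between 0 and 15 counts in any library.

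The promoters of ITGA2 and ITGB6 are shown because these genes had the largest rise and the largest fall in the combination, a choice made after the values were seen. Each is the 250 bases before the annotated start, from RefSeq on GRCh38.p14, 5′ to 3′ on the strand of the gene, with CpG dinucleotides in capitals. ITGA2 is chr5:52989102-52989351 (plus strand) and ITGB6 is chr2:160200273-160200522 (minus strand). The GENCODE starts given above fall inside these stretches, 26 bases (ITGA2) and 41 bases (ITGB6) before the RefSeq starts.
ITGA2: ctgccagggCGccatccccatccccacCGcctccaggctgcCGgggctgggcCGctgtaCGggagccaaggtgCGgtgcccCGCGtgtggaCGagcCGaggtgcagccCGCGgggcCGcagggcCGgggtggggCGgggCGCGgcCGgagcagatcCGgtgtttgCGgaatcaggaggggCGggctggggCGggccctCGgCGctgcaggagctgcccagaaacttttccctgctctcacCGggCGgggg
ITGB6: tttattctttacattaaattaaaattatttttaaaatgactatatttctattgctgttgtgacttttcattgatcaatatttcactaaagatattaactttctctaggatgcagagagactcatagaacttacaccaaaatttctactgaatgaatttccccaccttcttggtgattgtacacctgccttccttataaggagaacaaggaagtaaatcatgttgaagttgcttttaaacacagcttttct
The ITGA2 stretch held 26 CpG and 76.4% G and C, and that of ITGB6 held 0 CpG and 30.0%. Over 35116 RefSeq promoters of this length the median was 11 CpG (10th to 90th percentile 1 to 31) and 58.0% G and C (38.0% to 75.2%), so the 2 genes lie outside that range in G and C on opposite sides. Of the members, 7 of 9 had a promoter entry, ITGAV and ITGB1 with 2 each and ITGB5 with 3. ITGA3 and ITGB3 had none and were not searched. On both strands these were searched for the AP-1 motif TGANTCA, held by 6.57% of all promoters, the FOXO motif TGTTTAC, held by 2.98%, and the TEAD motif GGAATG, held by 11.89%. The TEAD letters were found 82 bases before the start of ITGA5 and 182 bases before a start of ITGB1, and no other match lay within the 250 bases. Letters across a start were not searched. At ITGA5 the AP-1 letters TGAGTCA lie across the start and were not counted. Such a match is a description of the letters and not of a bound site.

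Per kilobase of exon, which allows a comparison between genes, the β1 and β5 mRNAs were the most abundant of the 9 in DMSO. The level in CPM per kilobase of merged exons was 35.5 ± 1.26 for ITGB1, 27.6 ± 1.5 for ITGB5, 17.1 ± 1.24 for ITGAV and 15.3 ± 0.342 for ITGA3 (SD, n = 3). It was 7.12 ± 0.291 for ITGB6, 4.59 ± 0.352 for ITGB8, 1.75 ± 0.136 for ITGA2, 0.759 ± 0.036 for ITGA5 and 0.0303 ± 0.0110 for ITGB3. Among the α subunits ITGA3 and ITGAV therefore stood well above ITGA2 and ITGA5. The order depends on the length used: with the longest transcript ITGA3 (27.3) passed ITGAV (19.9), and ITGB8 (7.94) passed ITGB6 (7.14). In the combination ITGB5 (49.4 ± 2.21) and ITGA3 (37.7 ± 0.494) stood above ITGB1 (30.9 ± 1.57) per kilobase of merged exons, and ITGA2 had reached 7.79 ± 0.648.

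The combination changed 6 of the 8 integrins tested against DMSO. The collagen receptor ITGA2, the laminin receptor ITGA3 and the β5 subunit rose, the β6 subunit, αV and β1 fell, and ITGA5 and ITGB8 did not pass the test. The test was edgeR's quasi-likelihood test, two-sided, with Benjamini-Hochberg adjustment over 17780 genes and a threshold of 0.05. Over all genes 62.8% passed it, 31.4% upwards and 31.4% downwards, so a count of 6 of 8, with 3 in each direction, says little about integrins in particular. Changes of at least 2-fold were found in 3 of the 8 (ITGA2, ITGA3 and ITGB6), against 14.8% of all genes. The median absolute log2 change was 0.76 over the 8 integrins and 0.37 over all genes. The libraries did not overlap between groups for 6 of the 8, where 67.7% of all genes had no overlap.

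**Figure D1:**
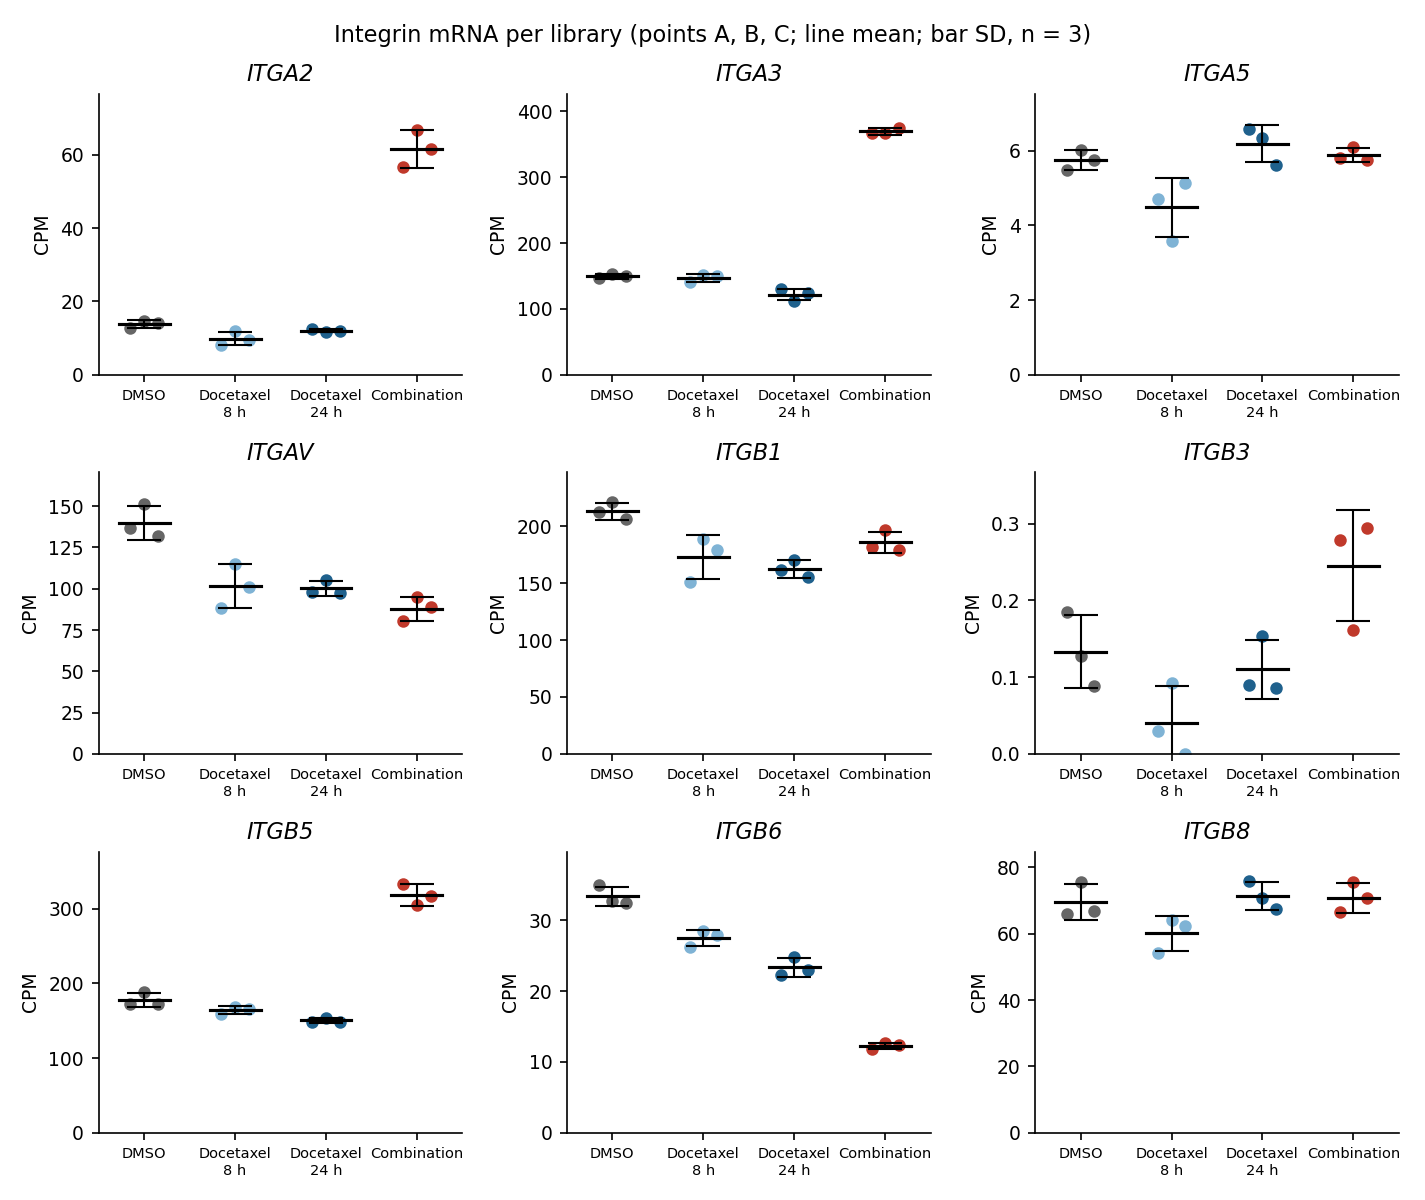
Level of each of the 9 integrins in the 12 libraries, in CPM with TMM scaling on an axis from 0, by group. Points are libraries A, B and C, the horizontal line is the mean and the bar the SD (n = 3). ITGA2, ITGA3 and ITGB5 are highest in the combination, ITGB6 is lowest there, and ITGB3 stays at or below 0.294 CPM.

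ITGA2, the α2 subunit of the collagen receptor, had 12.6, 14.7 and 14.2 CPM in DMSO libraries A, B and C and 56.5, 66.8 and 61.6 CPM in the combination. All 3 combination libraries were far above all 3 DMSO libraries. The mean rose from 13.8 ± 1.077 to 61.6 ± 5.12 CPM, 4.47-fold (log2 change 2.16 ± 0.09, SE; edgeR adjusted p = 2.66e-15). ITGA3, the α3 subunit of the laminin receptor, had 146.3, 153 and 149.3 CPM in DMSO and 366.8, 366.8 and 375.2 CPM in the combination. The spread within either group was small beside the distance between them. Its mean rose from 149.5 ± 3.35 to 369.6 ± 4.84 CPM, 2.47-fold (log2 change 1.31 ± 0.05; edgeR adjusted p = 8.6e-16). ITGA5, the α5 subunit of the main fibronectin receptor, had 5.48, 6.03 and 5.73 CPM in DMSO and 5.79, 6.09 and 5.76 CPM in the combination. Its groups overlapped, and the log2 difference of 0.03 ± 0.12 did not pass (edgeR adjusted p = 0.817).

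ITGAV, the α subunit shared by the RGD receptors, had 136.8, 151.4 and 131.8 CPM in DMSO and 80.4, 94.8 and 88.7 CPM in the combination. Every combination library was below every DMSO library, and the mean fell from 140 ± 10.2 to 88.0 ± 7.24 CPM (0.629-fold; log2 change -0.67 ± 0.08; edgeR adjusted p = 6.37e-08). Among its β partners, ITGB5, which with αV forms a vitronectin receptor, had 172.4, 188.9 and 171.9 CPM in DMSO and 333.2, 304.7 and 317.8 CPM in the combination. Among the β subunits described here that were tested it alone rose, from 177.7 ± 9.66 to 318.6 ± 14.3 CPM (1.79-fold; log2 change 0.84 ± 0.05; edgeR adjusted p = 1.33e-12). ITGB6, an epithelial β subunit whose αV receptor activates latent TGF-β, had 34.96, 32.7 and 32.5 CPM in DMSO and 11.8, 12.7 and 12.4 CPM in the combination. It fell from 33.4 ± 1.37 to 12.3 ± 0.448 CPM, 0.368-fold, without overlap (log2 change -1.44 ± 0.07; edgeR adjusted p = 1.88e-14). ITGB8, the other β subunit whose αV receptor activates latent TGF-β, had 66.0, 75.7 and 66.9 CPM in DMSO and 66.4, 75.5 and 70.6 CPM in the combination. The groups lay over each other and the log2 difference of 0.03 did not pass (edgeR adjusted p = 0.738), with a sign that turned under library totals (-0.01).

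ITGB1, the common partner of α2, α3, α5 and αV, had 212.3, 221.3 and 206.3 CPM in DMSO and 181.8, 196.7 and 179.2 CPM in the combination. Its groups did not overlap, but the change was the smallest of those called: from 213.3 ± 7.55 to 185.9 ± 9.44 CPM, a log2 change of -0.20 ± 0.06 (edgeR adjusted p = 0.0101). Without DMSO library B the fall missed the threshold (log2 change -0.16, edgeR adjusted p = 0.0587, within 6.05e-05 to 0.0587 over 12 alternatives). The α2 and α3 mRNAs therefore rose in the same libraries in which the mRNA of their β partner did not rise. ITGB3, the β3 subunit of another RGD receptor, had 8, 4 and 3 counts in the DMSO libraries and 9, 5 and 9 in the combination. The sums of 15 (exact 95% Poisson interval 8.4 to 24.7) and 23 (14.6 to 34.5) gave a ratio per library size of 1.78 with an interval of 0.889 to 3.67, which covers counting error only. A difference was not detectable at this depth.

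**Figure D2:**
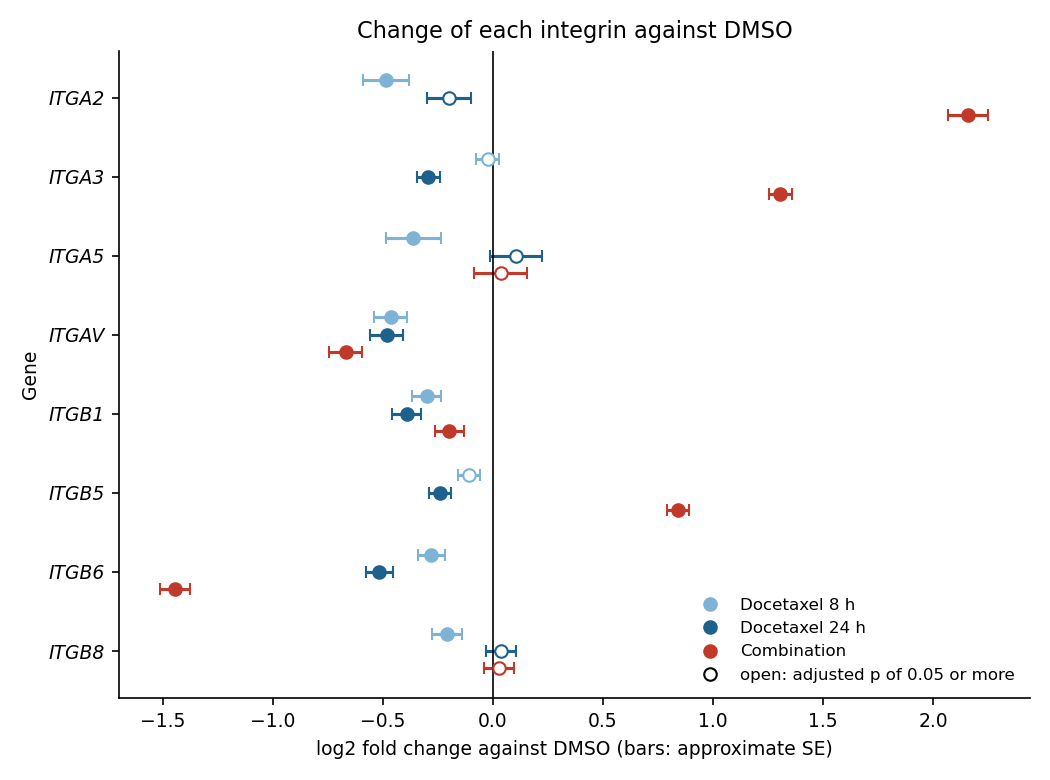
Fitted log2 fold change of each of the 8 tested integrins against DMSO (x axis), for docetaxel at 8 h and 24 h and for the combination. Bars are approximate SE, filled points passed an edgeR adjusted p of 0.05 and open points did not. The filled docetaxel points are all below 0, whereas the combination has 3 filled points above 0 and 3 below.

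Docetaxel lowered 6 of the 8 integrins at 8 h and 5 of 8 at 24 h, and raised none of them by this test, none at an unadjusted p under 0.05 and none by DESeq2. At 8 h ITGA2, ITGA5, ITGAV, ITGB1, ITGB6 and ITGB8 were lower than in DMSO, and at 24 h ITGA3, ITGAV, ITGB1, ITGB5 and ITGB6. Over all genes 47.3% passed at 8 h, 22.5% upwards and 24.8% downwards, and 42.9% at 24 h, 20.2% upwards and 22.7% downwards. The median log2 change of the 8 was -0.29 at 8 h, where that of all genes was -0.02, and -0.27 at 24 h against 0.01. No member changed by 2-fold, against 3.86% of all genes at 8 h and 3.09% at 24 h. The libraries did not overlap with DMSO for 7 of 8 members at 8 h (56.0% of all genes) and 6 of 8 at 24 h (53.1%). These comparisons and that of the combination share the 3 DMSO libraries, so they are not independent of each other. When libraries were scaled by their totals alone, without TMM factors, the median of all genes at 8 h moved by -0.16 on the log2 scale and the split over all genes changed from 3994 higher and 4415 lower to 2288 and 6784. All 8 members were then called lower at 8 h, with ITGA3 at -0.18 and ITGB5 at -0.27.

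ITGAV, ITGB1 and ITGB6 were lower at both times, under every alternative run. ITGAV had 88.2, 115 and 101.1 CPM at 8 h (101.5 ± 13.4) and 98.1, 105.2 and 97.2 CPM at 24 h (100.2 ± 4.35), all below the lowest DMSO library. Its log2 changes from DMSO were -0.46 ± 0.08 (edgeR adjusted p = 2.19e-05) and -0.48 ± 0.08 (edgeR adjusted p = 1.93e-05). ITGB1 had 151.1, 189.2 and 178.9 CPM at 8 h (173 ± 19.7) and 161.4, 170.7 and 155.3 CPM at 24 h (162.5 ± 7.75). Library A at 8 h was the lowest of the 12 for this gene. The log2 changes were -0.30 ± 0.06 (edgeR adjusted p = 0.000468) and -0.39 ± 0.06 (edgeR adjusted p = 3.6e-05). ITGB6 had 26.2, 28.4 and 27.95 CPM at 8 h (27.5 ± 1.16) and 22.2, 24.9 and 23.0 CPM at 24 h (23.4 ± 1.36). The ranges of its 4 groups did not overlap and descended from DMSO through 8 h and 24 h to the combination. The log2 changes from DMSO were -0.28 ± 0.06 at 8 h (edgeR adjusted p = 0.000755) and -0.52 ± 0.06 at 24 h (edgeR adjusted p = 9.45e-07).

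The ligand-binding α subunits differed in time. ITGA2 had 8.18, 11.8 and 9.52 CPM at 8 h (9.84 ± 1.85) and 12.4, 11.6 and 12.02 CPM at 24 h (12 ± 0.431). It was lower than DMSO at 8 h (log2 change -0.49 ± 0.10, edgeR adjusted p = 0.000428), and its difference at 24 h did not pass (-0.20 ± 0.10, edgeR adjusted p = 0.108). Without the filter on low counts the 24 h difference passed (edgeR adjusted p = 0.0417, within 0.0417 to 0.32 over the alternatives). ITGA3 had 140.8, 151.1 and 149.4 CPM at 8 h (147.1 ± 5.48), within the range of DMSO or just under it, and 129.7, 112.6 and 123.5 CPM at 24 h (121.9 ± 8.66), all below DMSO. The log2 difference was -0.02 at 8 h (edgeR adjusted p = 0.735) and -0.29 ± 0.05 at 24 h (edgeR adjusted p = 7.96e-05). ITGA5 had 4.71, 3.58 and 5.13 CPM at 8 h (4.48 ± 0.801) and 6.58, 6.35 and 5.62 CPM at 24 h (6.18 ± 0.502). It fell by 0.36 ± 0.13 on the log2 scale at 8 h (edgeR adjusted p = 0.02), and at 24 h the difference of 0.10 did not pass (edgeR adjusted p = 0.519). The ITGA5 call at 8 h was lost without DMSO library B (edgeR adjusted p = 0.0829), without DMSO library C (0.0545) and without library B at 8 h (log2 change -0.22, edgeR adjusted p = 0.156), within a range of 0.00132 to 0.156.

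ITGB5 and ITGB8 differed less from DMSO than ITGB1 and ITGB6 did. ITGB5 had 159.1, 168.6 and 166 CPM at 8 h (164.6 ± 4.88) and 148.6, 153.8 and 148.8 CPM at 24 h (150.4 ± 2.95), below all DMSO libraries at both times. Its log2 difference was -0.11 ± 0.05 at 8 h, which did not pass (edgeR adjusted p = 0.0756), and -0.24 ± 0.05 at 24 h, which did (edgeR adjusted p = 0.000484). ITGB8 had 54.2, 64.0 and 62.4 CPM at 8 h (60.2 ± 5.27) and 76.0, 70.7 and 67.5 CPM at 24 h (71.4 ± 4.30). It was lower at 8 h (log2 change -0.21 ± 0.07, edgeR adjusted p = 0.0154), and at 24 h the groups overlapped (0.04, edgeR adjusted p = 0.69). The ITGB8 call at 8 h was lost without DMSO library B (log2 change -0.13, edgeR adjusted p = 0.168) and without library A at 8 h (-0.14, edgeR adjusted p = 0.108), in a range of 0.00032 to 0.168 over the alternatives. ITGB3 had 1, 3 and 0 counts at 8 h and 3, 5 and 4 at 24 h, sums of 4 (interval 1.09 to 10.2) and 12 (6.2 to 21). These intervals overlap that of DMSO, which is not a test of the difference. In a fit without the filter the log2 difference of ITGB3 from DMSO was -1.62 at 8 h (edgeR adjusted p = 0.226) and -0.34 at 24 h (edgeR adjusted p = 0.883), and neither passed.

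Between 8 h and 24 h of docetaxel, 6 of the 8 integrins differed, 3 in each direction, where 34.9% of all genes passed (16.6% upwards and 18.3% downwards). ITGA2, ITGA5 and ITGB8 were higher at 24 h and ITGA3, ITGB5 and ITGB6 lower. ITGA5 had the largest difference, 1.38-fold (log2 change 0.47 ± 0.12, edgeR adjusted p = 0.00511), followed by ITGA2 at 0.29 ± 0.10 (edgeR adjusted p = 0.0357) and ITGA3 at -0.27 ± 0.05 (edgeR adjusted p = 0.000259). ITGB8 differed by 0.25 ± 0.07 (edgeR adjusted p = 0.00712), ITGB6 by -0.24 ± 0.06 (edgeR adjusted p = 0.00586) and ITGB5 by -0.13 ± 0.05 (edgeR adjusted p = 0.0489). The ITGA2 libraries overlapped between the times, and 5 of 8 members had no overlap (43.5% of all genes). ITGAV and ITGB1 did not pass (edgeR adjusted p = 0.878 and 0.295), though ITGB1 did without library A at 8 h (log2 change -0.18, edgeR adjusted p = 0.0137, in a range of 0.0137 to 0.836).

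The falls from 8 h to 24 h depended on the scaling. With library totals the median of all genes moved by 0.13 on the log2 scale, the split over all genes went from 2947 higher and 3261 lower to 5392 and 1655, and the integrins from 3 and 3 to 3 and 1. The difference of ITGB5 was then 0.001 (edgeR adjusted p = 0.988) and that of ITGB6 -0.11 (edgeR adjusted p = 0.242), while ITGA3 was still called. ITGB5 also missed the threshold without library B or C at 8 h or any 1 of the 24 h libraries (edgeR adjusted p between 0.0599 and 0.133), without the filter (0.0679) and in a fit of the docetaxel groups alone (0.0638), and passed without library A at 8 h (0.0307), in a range of 0.0225 to 0.988 over all alternatives. The ITGA2 call was lost without library A at 8 h (log2 change 0.16, edgeR adjusted p = 0.235), without C at 8 h (0.101), without A at 24 h (0.0934) and without C at 24 h (0.0839), and in the fit of the docetaxel groups alone (0.0601), in a range of 0.00123 to 0.235.

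Against docetaxel, the combination had higher ITGA2, ITGA3 and ITGB5 and lower ITGB6 and ITGAV at both times. Against 8 h, 7 of 8 members differed, 5 higher and 2 lower, where 66.4% of all genes passed (34.3% higher and 32.1% lower). Against 24 h it was 6 of 8, 4 higher and 2 lower, where 63.8% passed (32.1% higher and 31.7% lower). Differences of at least 2-fold were found for 3 members in each comparison, against 19.0% of all genes for 8 h and 15.1% for 24 h. Libraries did not overlap for 6 of 8 in either (67.6% and 66.0% of all genes). The treatments differed in plate, serum and pretreatment as well as in drug, and the combination was harvested at 24 h.

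ITGA2 was 6.26-fold higher in the combination than at 8 h of docetaxel (log2 difference 2.65 ± 0.10, edgeR adjusted p = 1.34e-16) and 5.13-fold higher than at 24 h (2.36 ± 0.09, edgeR adjusted p = 7.19e-16). ITGA3 was 2.51-fold and 3.03-fold higher (edgeR adjusted p = 4.61e-16 and 2.66e-17), and ITGB5 1.94-fold and 2.12-fold higher (edgeR adjusted p = 9.86e-14 and 1.74e-14). ITGB6 was at 0.447-fold of its level at 8 h and 0.526-fold of that at 24 h (edgeR adjusted p = 7.52e-13 and 6.34e-11). These 4 genes were called in the same direction under all 12 alternatives of each comparison. ITGAV was lower by a log2 difference of -0.21 ± 0.08 against 8 h (edgeR adjusted p = 0.0213) and -0.19 ± 0.08 against 24 h (edgeR adjusted p = 0.0358). The ITGAV call against 8 h was lost without library B at 8 h (edgeR adjusted p = 0.21) or combination library A (0.12), with library totals (0.368) and in a fit of only these groups (0.0605), in a range of 0.000158 to 0.368. Against 24 h it was lost without library B (0.136) or C (0.06) at 24 h and without combination library A (0.18) or C (0.0655), in a range of 0.000893 to 0.18.

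ITGA5 and ITGB8 were higher in the combination than at 8 h, by 0.40 ± 0.13 (edgeR adjusted p = 0.00809) and 0.24 ± 0.07 (edgeR adjusted p = 0.0044) on the log2 scale, and did not pass against 24 h (edgeR adjusted p = 0.639 and 0.906). ITGA5 missed the threshold against 8 h without library B at 8 h (log2 difference 0.26, edgeR adjusted p = 0.0784, in a range of 0.00101 to 0.0784). ITGB1 was higher than at 24 h (0.20 ± 0.07, edgeR adjusted p = 0.0114), a call lost without combination library B (0.065, in a range of 0.00312 to 0.065). Against 8 h its difference of 0.10 did not pass (edgeR adjusted p = 0.163) but did without library B at 8 h (0.17, edgeR adjusted p = 0.0238) and with library totals (0.22, edgeR adjusted p = 0.00893), in a range of 0.00893 to 0.837. With library totals the split over all genes against 8 h changed from 6101 higher and 5701 lower to 7229 and 4448, a shift of the median by 0.12, and that of the integrins from 5 and 2 to 6 and 1. ITGB3, not kept by the filter, had a counting ratio of 5.78 against 8 h (95% interval 1.97 to 23) and 2.29 against 24 h (1.09 to 5.06). In a fit without the filter its difference from 8 h passed (edgeR adjusted p = 0.0121) and that from 24 h did not (edgeR adjusted p = 0.228).

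Among the 5 β subunits described here, the makeup of the mRNA was similar in the DMSO and docetaxel libraries. It shifted from ITGB1 and ITGB6 to ITGB5 in the combination. ITGB4 is not part of this sum, although it had more CPM than any of the 5 in DMSO (508.4) and in the combination (1202). Of the summed level per kilobase of the 5 β subunits, ITGB1 held 47.5% ± 0.323 in DMSO, 44.8% ± 1.94 at 8 h, 45.0% ± 0.651 at 24 h and 35.3% ± 1.78 in the combination (SD, n = 3). ITGB5 held 36.2%, 37.5% and 36.8% in DMSO libraries A, B and C and 58.1%, 53.9% and 57% in the combination, so the share of ITGB5 exceeded that of ITGB1 in all 3 combination libraries and in none of the other 9. The means for ITGB5 were 36.8% ± 0.663, 39.9% ± 1.76, 38.8% ± 0.664 and 56.3% ± 2.2 in the order DMSO, 8 h, 24 h and combination. The pair whose αV receptors activate TGF-β took the remainder: ITGB6 held 9.54% ± 0.581, 9.17% ± 0.285, 8.3% ± 0.311 and 2.99% ± 0.14, and ITGB8 6.13% ± 0.251, 6.18% ± 0.111, 7.84% ± 0.488 and 5.33% ± 0.377. ITGB3 held at most 0.0774% in a library. The sum itself was 74.8 ± 2.98 CPM per kilobase in DMSO, 64.2 ± 4.64 at 8 h, 60.1 ± 2.01 at 24 h and 87.7 ± 1.20 in the combination. These shares are a description without a test, and the length used moves the share of ITGB6 in DMSO from 9.54% to 6.38%.

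**Figure D3:**
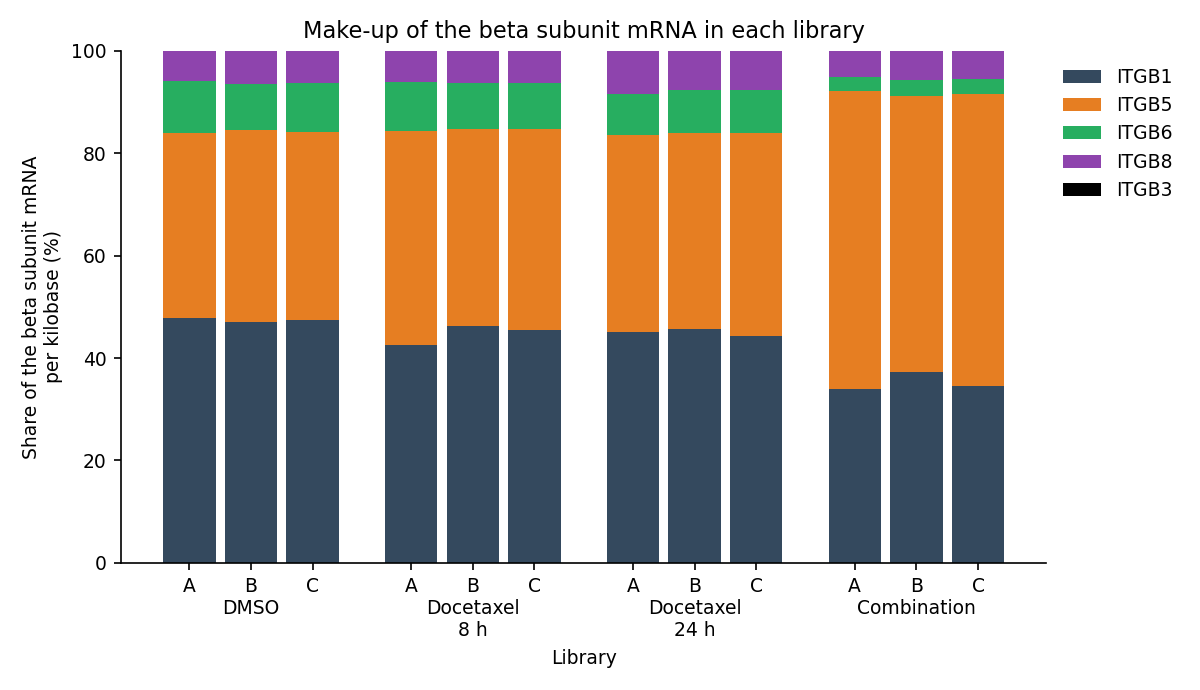
Share of each β subunit (y axis, percent) in the summed CPM per kilobase of the 5 β subunit genes described here, without ITGB4, for the 12 libraries by group (x axis). The ITGB5 part lies between 53.9% and 58.1% in the combination and between 36.2% and 41.8% elsewhere, and ITGB3 is too small to be seen.

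Other subunits of the integrin family were read from a list of 17, of which 12 were tested. Against DMSO 1 rose and 3 fell at 8 h, 3 rose and 6 fell at 24 h, and 6 rose and 1 fell in the combination, with median log2 changes of -0.30, -0.28 and 0.48. Over all genes the share that rose was 22.5% at 8 h, 20.2% at 24 h and 31.4% in the combination, and the share that fell was 24.8%, 22.7% and 31.4%. The number called, 4 of 12 at 8 h and 7 of 12 in the combination, was not above the 47.3% and 62.8% of all genes. ITGB4, which pairs with α6 to bind laminin at hemidesmosomes, had 508.4 ± 20.1 CPM in DMSO, 368.1 ± 22.3 at 8 h, 372.9 ± 10.2 at 24 h and 1202 ± 40.0 in the combination (log2 changes -0.47, -0.45 and 1.24; edgeR adjusted p = 1.75e-07, 5.86e-07 and 3.27e-15). ITGA6, its partner, fell from 158.6 ± 7.36 to 104.1 ± 10.4 CPM at 8 h and to 122.9 ± 5.41 at 24 h, and was at 141.1 ± 4.40 in the combination (edgeR adjusted p = 3.06e-08, 3.5e-05 and 0.0185). ITGA10, an α subunit of a collagen receptor, rose from 0.633 ± 0.0907 to 4.89 ± 0.132 CPM in the combination (edgeR adjusted p = 2.89e-11). ITGB2, the leukocyte β subunit, rose from 11.8 ± 0.443 to 21.4 ± 1.61 CPM there (edgeR adjusted p = 3.19e-09). ITGB7 rose at 24 h of docetaxel from 1.57 ± 0.268 to 3.64 ± 0.653 CPM (edgeR adjusted p = 1.1e-05), and the leukocyte subunit ITGAL fell at 8 h from 2.57 ± 0.14 to 1.07 ± 0.51 CPM (edgeR adjusted p = 0.000171).

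ITGA1, another collagen receptor subunit, and ITGA8, which pairs with β1, passed the filter only through the combination, so their calls there were fixed by the filter. Without both, 10 subunits were tested: 1 rose and 3 fell at 8 h, 2 rose and 6 fell at 24 h, and 4 rose and 1 fell in the combination. ITGA1 had 0 counts in the 3 DMSO libraries and 20, 19 and 17 in the combination, at least 21.7-fold higher where 0 counts in the group are set to a floor of 3. ITGA8 had 0 counts in the 9 other libraries and 18, 22 and 29 in the combination, at least 26.7-fold higher than in DMSO. With these genes at their bound, or left out where both groups were at or under the floor, the medians of the other subunits were -0.37, -0.30 and 0.48. The count for the other subunits at 8 h was 7 lower and none higher with library totals. At 24 h the 9 calls dropped to 4 without DMSO library A or without library A at 24 h, to 5 without DMSO library B or library B at 24 h, and to 5 by DESeq2.

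**Figure D4:**
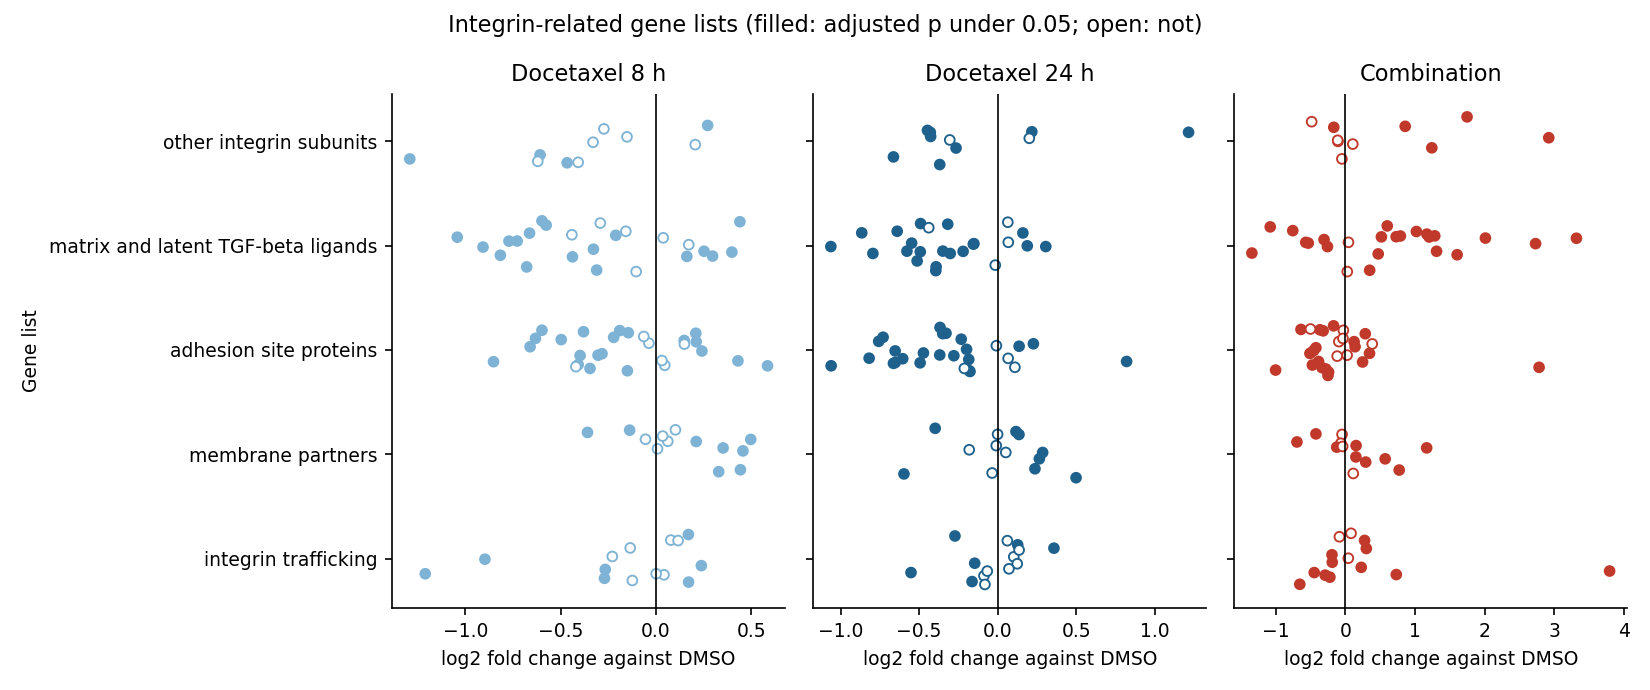
Log2 fold change against DMSO (x axis, a separate scale in each panel) of the tested genes in 5 lists related to integrins, for docetaxel at 8 h and 24 h and for the combination. Each point is a gene, filled where the edgeR adjusted p was under 0.05, and ITGA1, ITGA8 and SPP1, with 0 or 1 count in DMSO, are not drawn. Of the 24 ligand genes drawn, 15 rose in the combination, and 20 of 27 adhesion site genes fell at 24 h of docetaxel.

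Matrix and latent TGF-β ligand genes fell more often than they rose with docetaxel, and rose more often than they fell in the combination. The list is wider than the ligands of the integrins described here, and also holds a carrier of latent TGF-β. Of 25 matrix and latent TGF-β ligand genes tested (of 29), 5 rose and 13 fell at 8 h, 3 rose and 16 fell at 24 h, and 16 rose and 7 fell in the combination (median log2 changes -0.33, -0.35 and 0.60, against -0.02, 0.01 and 0.01 over all genes). Of all genes 24.8% fell at 8 h, 22.7% fell at 24 h and 31.4% rose in the combination. With library totals 1 ligand gene rose and 17 fell at 8 h. The basement membrane collagens COL4A1 and COL4A2 rose in the combination from 1.92 ± 0.144 to 19.1 ± 1.34 CPM (log2 change 3.32, edgeR adjusted p = 2.53e-15) and from 4.43 ± 0.278 to 29.5 ± 1.66 CPM (2.73, edgeR adjusted p = 1.36e-16). Fibronectin, FN1, rose from 35.4 ± 0.94 to 107.6 ± 6.79 CPM (1.61, edgeR adjusted p = 1.38e-14). At 8 h TNC, CTGF and COL1A1 fell (log2 changes -0.66, -0.73 and -0.77; edgeR adjusted p = 3.79e-09, 1.11e-08 and 2.04e-08), whereas CTGF was higher in the combination (1.28, edgeR adjusted p = 1.28e-13). At 24 h HSPG2, which encodes the basement membrane proteoglycan perlecan, fell from 15.2 ± 1.37 to 7.25 ± 0.287 CPM, and TNC and LTBP1, a carrier of latent TGF-β, fell to 187.4 ± 10.6 and 16.8 ± 0.378 CPM (edgeR adjusted p = 2.22e-08, 1.6e-08 and 7.51e-09). HSPG2 was already lower at 8 h (log2 change -0.91, edgeR adjusted p = 9.4e-08), and in the combination it was higher than in DMSO (0.35, edgeR adjusted p = 0.0019). TNC, LTBP1 and COL1A1 were lower than in DMSO in the combination too (log2 changes -0.57, -0.76 and -0.26; edgeR adjusted p = 9.39e-09, 1.53e-09 and 0.00354). SPP1, osteopontin, had 0, 1 and 0 counts in DMSO and 33, 28 and 31 in the combination, a ratio of 107 with a counting interval of 18.7 to 4260, and it too passed the filter only through the combination. Without it 15 of 24 ligand genes rose there and 7 fell.

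Genes for proteins on the cytoplasmic side of adhesion sites fell more often than they rose in each of the 3 comparisons with DMSO. Of 27 genes tested (of 28), 6 rose and 15 fell at 8 h, 3 rose and 20 fell at 24 h, and 6 rose and 14 fell in the combination (median log2 changes -0.19, -0.33 and -0.24, against -0.02, 0.01 and 0.01 over all genes). Of all genes 24.8%, 22.7% and 31.4% fell in these comparisons, and with library totals 1 rose and 18 fell at 8 h. KANK2 and the tensin TNS1 fell at 8 h (log2 changes -0.60 and -0.85; edgeR adjusted p = 7.16e-09 and 6.51e-08), and the tensins TNS3 and TNS4 at 24 h (-0.82 and -0.76; edgeR adjusted p = 6.44e-09 and 3.63e-09). KANK2 and TNS1 were also lower at 24 h (-0.47 and -1.06; edgeR adjusted p = 3.74e-07 and 7.51e-09) and in the combination (-0.46 and -0.37; edgeR adjusted p = 1.12e-07 and 0.000833). TNS3 was lower at 8 h as well (-0.41, edgeR adjusted p = 3.04e-05). TNS4 had risen at 8 h, from 35.6 ± 0.595 to 47.9 ± 3.86 CPM (log2 change 0.43, edgeR adjusted p = 2.06e-06), and was slightly higher in the combination (0.14, edgeR adjusted p = 0.0444). In the combination TNS3 fell from 341.3 ± 19.3 to 170.1 ± 10.8 CPM and VCL, vinculin, from 248.9 ± 9.73 to 159.7 ± 7.32 CPM (edgeR adjusted p = 1.6e-11 and 2.47e-09). LIMS2, a partner of the integrin-linked kinase, went the other way there, from 2.32 ± 0.452 to 15.8 ± 0.978 CPM (log2 change 2.79, edgeR adjusted p = 4.16e-14).

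Of 13 membrane proteins that associate with integrins, 6 rose and 2 fell at each docetaxel time, and 6 rose and 3 fell in the combination. Of all genes 22.5% rose and 24.8% fell at 8 h, and 20.2% rose and 22.7% fell at 24 h. At each docetaxel time 8 of 13 were called, against 47.3% and 42.9% of all genes. The number called in the combination, 9 of 13, was near the 62.8% of all genes. With library totals the splits were 5 and 4 at 8 h and 4 and 3 at 24 h. CAV1, the coat protein of caveolae, rose from 245.8 ± 7.03 to 337.2 ± 1.19 CPM at 8 h and to 552.6 ± 11.3 in the combination, and the tetraspanin CD63 from 172.6 ± 3.04 to 234.6 ± 8.51 and 294.9 ± 21.6 CPM (edgeR adjusted p between 4.56e-16 and 6.19e-07 for the 4 rises). PLAUR, the urokinase receptor, rose 1.41-fold at both docetaxel times (edgeR adjusted p = 8.23e-08 and 1.56e-07). The tetraspanin CD82 fell at 8 h, at 24 h and in the combination (log2 changes -0.359, -0.597 and -0.425; edgeR adjusted p = 1.91e-06, 4.29e-09 and 6.54e-08). So did the proteoglycan SDC1 (-0.138, -0.398 and -0.698; edgeR adjusted p = 0.0136, 3.45e-07 and 5.73e-12). The 14 trafficking genes tested (of 15) gave 3 rises and 4 falls at 8 h, 2 rises and 4 falls at 24 h, and 5 rises and 6 falls with the combination. At the docetaxel times 7 and 6 of the 14 were called, close to the 47.3% and 42.9% of all genes. With library totals none rose at either docetaxel time, 7 fell at 8 h and 4 fell at 24 h. The 6 calls at 24 h dropped to 3 without DMSO library A and to 2 without DMSO library C or library C at 24 h. DAB2, an endocytic adaptor for β1 integrins, fell from 2.17 ± 0.211 to 0.923 ± 0.209 CPM at 8 h (edgeR adjusted p = 3.89e-06) and rose 13.9-fold in the combination, to 30.2 ± 1.35 CPM (edgeR adjusted p = 3.13e-18). At 24 h DAB2 was higher than in DMSO, at 2.75 ± 0.286 CPM (log2 change 0.36, edgeR adjusted p = 0.0348). The recycling genes RAB11A and RAB11FIP1 moved apart: RAB11A rose in all 3 comparisons (log2 changes 0.24, 0.13 and 0.30; edgeR adjusted p = 0.000336, 0.038 and 1.29e-05) and RAB11FIP1 fell in all 3 comparisons (-0.90, -0.55 and -0.66; edgeR adjusted p = 3.69e-07, 0.000168 and 9.68e-06). At 24 h the sorting genes SNX17 and GGA3 fell too (-0.27 and -0.16; edgeR adjusted p = 0.000219 and 0.0153).

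Across the 12 libraries ITGA2, ITGA3 and ITGB5 were correlated, with Pearson correlations of log2 CPM of 0.962 (ITGA2 and ITGA3), 0.967 (ITGA2 and ITGB5) and 0.989 (ITGA3 and ITGB5). ITGB6 was negatively correlated with them (-0.888, -0.865 and -0.846), and ITGAV went with ITGB1 (0.737) and ITGB6 (0.776). These points share 4 groups of 3 libraries and are given as a description. ITGA2, ITGA3 and ITGB5 were highest and ITGB6 lowest in the combination. Outside it the means of ITGA3, ITGB5 and ITGB6 all descended from DMSO through 8 h to 24 h. For ITGA3 and ITGB5 the step from DMSO to 8 h did not pass the test. ITGA2 was instead lowest at 8 h. From 8 h to 24 h of docetaxel the log2 difference was 0.29 for ITGA2, -0.27 for ITGA3, -0.13 for ITGB5 and -0.24 for ITGB6. Among 11133 genes of at least 5 CPM on average, those most like ITGA2 were RETREG1 (0.994), WWC2 and COL4A1. For ITGA3 they were FAM20C (0.997), BACE2 and UST, and for ITGB5 NT5E (0.996), WFS1 and EBF4. For ITGB6 they were IDE (0.994), DDX46 and ADAMTS1, for ITGAV RAET1E-AS1 (0.985), TBC1D4 and GTF2I, and for ITGB1 FBXL14 (0.963), IPO7 and EFR3A. ITGB8 had CPEB4 (0.928), MINDY2 and PAN3, and ITGA5 had OVGP1 (0.875), GXYLT2 and ZNF204P. Between 717 and 848 genes had a correlation over 0.9 with ITGA2, ITGA3, ITGB5 or ITGB6, against 7 with ITGB8 and 0 with ITGA5, so the 3 names given for the first 4 are the head of a long list. By Spearman's correlation 2 of the 3 names were kept for ITGA3, 1 for ITGB8, and 0 for ITGA2, ITGA5, ITGAV, ITGB1, ITGB5 and ITGB6.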

How the data were processed

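The deposited values are whole-number counts per gene symbol, 1 table per library, made by the authors. Per the submitters' processing notes, fastp, HISAT2 2.0.5 and DESeq2 were used and the build was hg38, but no tool is given a role. Which program counted the reads, with which annotation and strand setting, is not given in the sources used here. Of 58735 symbols 58708 matched GENCODE release 29, and 27 had the form of dates. Entries with a repeated symbol (1745) were kept apart.

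Genes were kept by filterByExpr of edgeR 4.0.16 in R 4.3.3 with a minimum count of 10, and a model with 1 mean for each group was fitted to all 12 libraries (8 residual degrees of freedom), scaled by TMM (factors 0.917 to 1.047). For 6 comparisons a two-sided quasi-likelihood p was computed and adjusted by Benjamini-Hochberg over 17780 genes. The biological coefficient of variation was 5.59%. SE of log2 changes are approximate. CPM are counts scaled by TMM to a common library size. Depth lay between 29820617 and 45807059 counts per library, and intervals cover counting error only, since PCR copies were not marked. Libraries of a group differed by more than sampling noise (chi-square per degree of freedom 3.15 to 15.3), so none was merged.

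The text names all 9 integrins, from each of 5 lists up to 3 called genes with the smallest adjusted p per comparison with DMSO, and 3 genes most alike each member by Pearson's correlation of log2 CPM (prior count 2). ITGA1, ITGA8, SPP1, and ITGA6 in the combination, were named after their values were seen. The same holds for CTGF, TNC, COL1A1, LTBP1, HSPG2, KANK2, TNS1, TNS3, TNS4, CD82, SDC1, RAB11A and DAB2 in comparisons outside the rule. A gene named for a comparison may also have been called in others. A gene that the rule names is not reported here. Members and lists were chosen with earlier results of these data known. Alternatives were DESeq2 size factors, library totals, no filter, DESeq2 1.42.0, a fit of only the groups compared, a replicate block, each library left out, the longest transcript as length and Spearman's correlation. The edgeR script was tested on simulated counts. A series-wide table was not used here.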

Additional observations from a re-analysis of the deposited data

Results flagged for a closer look

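The level under docetaxel differed between 8 h and 24 h for 6 integrins in the direct comparison of these groups already given above (the quasi-likelihood test of edgeR, adjusted over all genes by Benjamini-Hochberg). The DMSO level does not enter this difference, and the hours of the DMSO libraries are not stated. Time in culture and time in drug therefore cannot be told apart. The log2 difference between 24 h and 8 h was 0.465 for ITGA5, 0.286 for ITGA2 and 0.246 for ITGB8, which were higher at 24 h. It was -0.27 for ITGA3, -0.236 for ITGB6 and -0.13 for ITGB5, which were lower at 24 h. Of all genes, 34.9% passed the same test. The ITGB5 call was kept under 4 of 12 alternatives, with a difference of 0.001 (adjusted p = 0.988) when libraries were scaled by totals, and that of ITGA2 under 7 of 12, with 0.162 to 0.445 when 1 library was left out.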

How the results depend on the processing

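Over 12 alternatives per comparison the count of integrins called stayed at 4 to 8 of 8 at 8 h of docetaxel against DMSO, 5 to 6 at 24 h, 5 to 6 in the combination, 4 to 6 between the docetaxel times, and 6 to 8 and 5 to 6 for the combination against 8 h and 24 h. Of 576 values of single members under alternatives, 526 kept direction and side of the threshold, 29 lost and 6 gained a call, and 15 turned sign. DESeq2 size factors and the DESeq2 test changed no member call. Apart from ITGB5 between the docetaxel times, the values that turned sign were of differences that had not passed the test, and the cause was not tested. With library totals they were ITGA5 (-0.002) and ITGB8 (-0.007) for the combination against DMSO, and ITGAV (0.111), ITGB1 (0.039) and ITGB5 (0.001) between the docetaxel times. Without the filter on low counts they were ITGA5 (-0.003) and ITGB8 (-0.01) for the combination against DMSO. Leaving out 1 library gave ITGA3 at 8 h against DMSO a range of -0.044 to 0.009, ITGB8 at 24 h -0.009 to 0.108, ITGB8 in the combination -0.02 to 0.1, ITGAV between the docetaxel times -0.111 to 0.082, and ITGB8 in the combination against 24 h -0.058 to 0.037.

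The letters A, B and C were checked as pairs: 18 correlations between libraries of the same letter lay between -0.134 and 0.143, 1 of them over 0.1, and in 5 of the 18 the library of the same letter was the most alike of the other group. The letters were therefore not taken as pairs. A replicate block changed none of the 48 member calls: it gave 6 integrins at 8 h, 5 at 24 h and 6 in the combination against DMSO, and moved the calls over all genes from 8409 to 8490, from 7627 to 7767 and from 11157 to 11218.

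Depth limits ITGB3, with 0 to 9 counts per library, and the precision for ITGA5 with 116 to 261. The longest transcript as length changes levels per kilobase and β shares but no comparison of a gene between groups. Each group has 3 libraries, no arm of either inhibitor alone was analysed here, and the DMSO libraries have no stated hours, serum or plate.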
